A study of Mus musculus with 8 samples.

Results

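Hybrid cells obtained by fusing extended pluripotent stem cells (EPSCs) with neural stem cells (NSCs) were compared, gene by gene, with the NSCs that went into the fusion. Members of the comparison were all genes whose mean FPKM (fragments mapped to a gene, scaled by the length of its transcript and by the fragments of the library) reached 1 in hybrid cells or in NSCs, which gave 12830 of the 24354 genes in the table. Of these, 9876 reached that level in both cell types, 1517 only in hybrid cells and 1437 only in NSCs. At the edge of the rule, Bik entered with a hybrid mean of 1.00 and Trp73 stayed out with 0.99999.

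The series holds 8 polyadenylated-RNA libraries, 2 each from hybrid cells, NSCs, EPSCs and E14 embryonic stem cells (ESCs). The NSCs were OG2+/-/ROSA26+/-, so that they carried a GFP reporter driven by the distal Oct4 enhancer and a ubiquitous lacZ, and they grew on gelatin in N2 medium with EGF and FGF2. The EPSCs were a wild-type line from C57BL/6 embryos at passage 15. The hybrid cells were 1 picked Oct4-GFP-positive line at passage 10, near-tetraploid, and like the EPSCs they were kept in LCDM (LIF, CHIR99021, dimethindene maleate and minocycline) on inactivated mouse embryonic fibroblast feeders. Fusion, ploidy, medium and feeders therefore changed together between NSCs and hybrid cells and cannot be told apart. The study calls its duplicates independent experiments, but the labels do not say whether they were separate cultures, and all came from the same line of each cell type. The p-values therefore measure the spread between these libraries, which may be in part technical. In bulk RNA, fewer cells of a type and less RNA per cell cannot be told apart, and FPKM per gene does not tell which parental genome a transcript came from.

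When a somatic cell is fused with a pluripotent cell, factors of the pluripotent partner act on the somatic nucleus, and the fused cell as a rule takes on the pluripotent programme while genes of the somatic lineage are shut down. NSCs are multipotent cells held by SOX and POU class III transcription factors, Notch signalling and EGF and FGF receptors, and they share many genes with radial glia and astrocytes. Pluripotent cells are held by OCT4 (Pou5f1), SOX2 and NANOG, form an epithelium joined by E-cadherin, and express part of the germline genes that DNA methylation keeps silent in somatic cells.

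A gene was called higher or lower where limma gave an adjusted p (Benjamini-Hochberg) below 0.05 across all genes tested and where the mean of the higher group was above 3 FPKM and above 3 times that of the other. By this rule 3824 of the members (29.8%) were called. Of these 1671 genes were higher in hybrid cells (13.0% of members) and 2153 were lower (16.8%), and these shares are the background for every list below. A gene with a mean below 1 FPKM in 1 cell type was a member through the other alone. It could then be called only in the direction of that other cell type, so counts within a list are in part set by the rule. In each of the 3824 called genes the 2 hybrid libraries lay outside the range of the 2 NSC libraries, which held with hybrid cells higher for 6072 of all members (47.3%) and with hybrid cells lower for 5886 (45.9%). limma alone passed 11202 members (87.3%), 5675 higher (44.2%) and 5527 lower (43.1%). The correlation between replicate libraries was 0.984 for hybrid cells over 11393 genes with a hybrid mean of at least 1 FPKM, and 0.992 for NSCs over 11313 genes chosen likewise, both a description over genes. With 2 libraries against 2 an exact two-sided permutation test of 1 gene cannot go below 0.333, so the calls rest on the spread limma shares across genes. With every library scaled to the same FPKM sum, the median log2 difference of members moved from 0.03 to -0.55, and 1351 genes were higher and 3633 lower, so that 27.1% of the calls were higher against 43.7% on the deposited scale. The genes called lower held 18.7% of the summed FPKM in NSCs and 1.59% in hybrid cells, whereas the genes called higher went from 11% to 32.3%. Another 20 genes met the level and the ratio without passing limma. Of these 14 were snoRNAs and 4 were miRNAs, classes that poly-A libraries hardly sample, and FPKM of such short RNAs jumped between replicates, as for Snord32a at 0 and 4416 in the hybrid libraries.

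**Figure D1:**
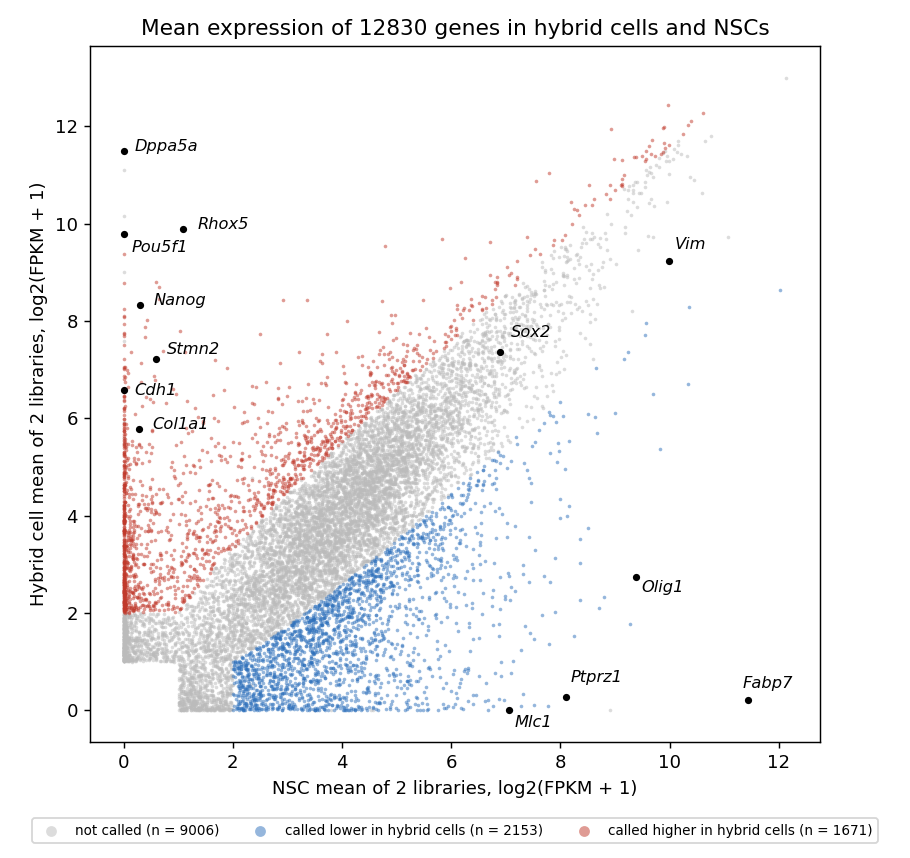
Each point is 1 of the 12830 genes, with the NSC mean on the x axis and the hybrid mean on the y axis, both as log2(FPKM + 1) over 2 libraries. Blue points are the 2153 genes called lower and red points the 1671 called higher in hybrid cells, with Fabp7 at the far lower right and Dppa5a at the top left.

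Among the 10 genes with the largest falls, 4 were on the list of radial glia and astroglia genes (Fabp7, Ptprz1, Mlc1 and Ednrb), 2 on that of neural adhesion and matrix (Ncan and Bcan) and 2 on that of neural ion channels and transporters (Kcnj10 and Slc6a11). Fabp7, the brain fatty acid binding protein of radial glia, had 2798 and 2709 FPKM in the NSC libraries and 0.0761 and 0.238 in the hybrid libraries, a log2 difference of -11.22 ± 0.09 (SE, n = 2 per group; limma, adjusted p = 3.509e-10). Here and below, log2 differences are hybrid minus NSC on the scale of log2(FPKM + 1), which understates changes of low values. Ptprz1, a receptor phosphatase of neural progenitors, went from 272.3 and 271.6 to 0.221 and 0.195 FPKM, and its ligand Ptn from 643.5 and 594.8 to 3.05 and 1.74. The brain proteoglycans neurocan (Ncan, 217 and 218.1 FPKM) and brevican (Bcan, 180.2 and 181.4 FPKM) were below 0.1 FPKM in both hybrid libraries. The same held for the glial potassium channel Kcnj10, at 153.3 and 153.2 FPKM in NSCs. Mlc1, an astrocyte membrane protein at 131.1 and 132.1 FPKM in NSCs, and the GABA transporter Slc6a11, at 136.2 and 135.6 FPKM, were listed at 0 in both hybrid libraries. Acsbg1, an acyl-CoA synthetase of brain, fell by 6.98 on the log2 scale and Ednrb, the endothelin receptor B, fell by 6.77. These 10 genes had the largest falls by the naming rule, and in EPSCs each of them was below 1 FPKM in both libraries.

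Of the 28 members on a list of radial glia and astroglia genes, 21 fell, 0 rose and 7 were not called, with a median log2 difference of -4.44 against 0.03 over all members. Nestin (Nes), the intermediate filament by which NSCs are identified, had 114 and 119.6 FPKM in NSCs and 2.41 and 2.38 in hybrid cells. Gfap, the astrocyte filament, fell from 29.2 and 24.8 to 0.0174 and 0.0175 FPKM. Slc1a3, the glial glutamate transporter, went from 404.5 and 431.2 to 3.47 and 3.09 FPKM. The 7 uncalled genes included several that both cell types express strongly. Vimentin (Vim) had 655.4 and 543.9 FPKM in hybrid cells and 1045 and 976.3 in NSCs. Apoe had 493.7 and 496.3 FPKM in hybrid cells against 420.5 and 350.4 in NSCs. Gja1, a connexin of gap junctions, had 86 and 57.8 against 37.4 and 39 FPKM, and glutamine synthetase (Glul) 85.5 and 46.4 against 89.7 and 91.3 FPKM. The NSC libraries thus had high Nes, Fabp7 and Slc1a3 and the hybrid libraries had little of most of these markers, while Vim and Apoe missed the rule of level and ratio, although Vim was called lower under quantile normalization, with a log2 difference of -2.18.

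Transcription factors of the neural lineage had the highest share of members called lower among the 29 lists. Of 33 members, 30 fell, 1 rose and 2 were not called, with a median log2 difference of -3.85, and the FPKM summed over the list was between 2093 and 2120 in the NSC libraries and between 57.6 and 62 in the hybrid libraries. Olig1 and Olig2, bHLH factors of the oligodendrocyte lineage, fell far. Olig1 went from 664.6 and 663.3 to 5.29 and 5.99 FPKM, and Olig2 from 320.2 and 333.5 to 4.06 and 3.56. Rfx4, a factor of neural tube patterning, was at 97.2 and 97.3 FPKM in NSCs and at 0.176 and 0.118 in hybrid cells. Pax6, which sets neuroectodermal identity, was at 12.4 and 12.7 FPKM in NSCs and 1.21 and 1.12 in hybrid cells. Zeb1, a repressor of epithelial genes, fell from 104 and 110.4 to 4.57 and 4.56 FPKM. Nfia, a nuclear factor I member of gliogenesis, fell from 22.3 and 25.6 to 0.113 and 0.104 FPKM. The gene that rose was Nkx6-2, at 4.91 and 5.96 FPKM in hybrid cells against 0.663 and 0.663 in NSCs, and Id4 (3.5 and 2.96 against 1.05 and 1.36 FPKM, called higher under quantile normalization and without the second NSC library) and Hopx (2.52 and 1.34 against 2.17 and 2.4 FPKM) were not called.

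POU and SOX factors bind DNA as partners, and NSCs and pluripotent cells use different members of both families. Among 9 POU genes in the comparison, 1 rose, 5 fell and 3 were not called. Pou5f1 (OCT4) was listed at 0 in both NSC libraries and had 1009 and 741.6 FPKM in hybrid cells. Its enhancer drove the reporter by which the hybrid colonies were picked, so this level was selected for and is no independent finding. The class III genes Pou3f1, Pou3f2, Pou3f3 and Pou3f4 all fell, as did Pou6f1. Pou3f3 went from 56 and 56.9 to 0.32 and 0.43 FPKM, Pou3f2 from 14.6 and 15.9 to 0.13 and 0.275, and Pou3f4, at 45.8 and 38.1 in NSCs, was listed at 0 in both hybrid libraries.

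Among 14 SOX genes, 1 rose, 10 fell and 3 were not called. Sox2, which both NSCs and pluripotent cells require, had 167.5 and 160.8 FPKM in hybrid cells and 116.3 and 119.6 in NSCs, a log2 difference of 0.47 ± 0.07 (SE) that turned to -0.14 when each library was scaled to the same FPKM sum and to -0.05 under quantile normalization. Its SOXB1 relatives fell, Sox1 from 13 and 12.7 to 0.141 and 0.172 FPKM and Sox3 from 40.1 and 37.2 to 1.37 and 1.51. Sox8 fell from 116.8 and 115.3 to 0.134 and 0.204 FPKM, and Sox9, a factor that holds NSC identity, from 30.2 and 28.8 to 0.905 and 0.423. Sox4, Sox5, Sox6, Sox11, Sox12 and Sox21 fell too, of which Sox12 lost its call under quantile normalization and without the first hybrid library. The member that rose was Sox15, at 27.1 and 27 FPKM in hybrid cells and 0.0372 and 0.0748 in NSCs.

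**Figure D2:**
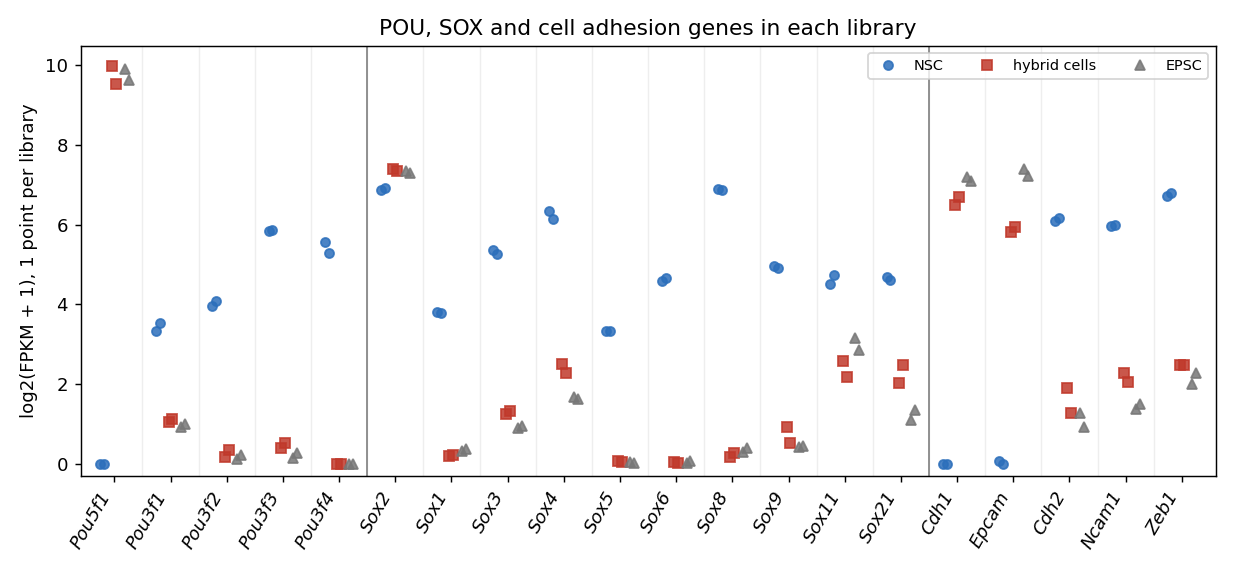
Log2(FPKM + 1) on the y axis for POU genes (left), SOX genes (middle) and cell adhesion genes with Zeb1 (right), 1 point per library of NSCs (circles), hybrid cells (squares) and EPSCs (triangles). In Sox2 the groups lie close together, whereas Pou5f1 and Cdh1 are at 0 in NSCs and Pou3f4 is at 0 in hybrid cells.

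Notch signalling keeps NSCs undifferentiated through HES and HEY repressors. Of 24 members of the pathway, 11 fell, 1 rose and 12 were not called. Ligands, receptors and targets all had members among the genes that fell. The ligand Dll1 went from 28.2 and 26.2 to 0.36 and 0.136 FPKM, the receptor Notch1 from 63.5 and 60.6 to 11.3 and 11.2, and the targets Hes5 from 29.5 and 19.5 to 0.0784 and 0.165 and Hey1 from 29.1 and 27.8 to 1.23 and 1.05. Lfng, the glycosyltransferase that tunes Notch receptors, fell from 119.8 and 118.9 to 0.58 and 0.655 FPKM. In contrast, the target Hes1 was not called (27.1 and 26.5 in hybrid cells, 23.9 and 25.4 FPKM in NSCs), and the DNA-binding partner Rbpj rose from 13.9 and 15.2 to 74.2 and 66.6 FPKM.

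Of 30 members on a list of growth factor receptors and their feedback genes, 15 fell, 3 rose and 12 were not called. Egfr, the receptor for the EGF supplied to NSCs, went from 77.5 and 80.1 to 2.89 and 2.06 FPKM (log2 difference -4.53 ± 0.12). FGF receptors differed among themselves. Fgfr3 fell from 37.1 and 34.9 to 0.21 and 1.06 FPKM, while Fgfr1, at 22.9 and 23.3 in hybrid cells and 44.9 and 43.5 in NSCs, stayed under the ratio needed for a call. The neurotrophin receptors Ntrk2 (42.2 and 38.7 FPKM in NSCs) and Ntrk3 (13 and 11.9 FPKM) were below 0.3 FPKM in both hybrid libraries. Among the 3 that rose were Gli2 and Erbb3, a receptor of the EGF receptor family, the latter from 0.0184 and 0.0181 to 3.24 and 4.37 FPKM. Since EGF and FGF2 were in the NSC medium alone, culture and fusion cannot be told apart here.

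Lists of neural cell contacts, excitability and wiring held more genes called lower than called higher. Of 26 neural adhesion and matrix members, 19 fell, 2 rose and 5 were not called. N-cadherin (Cdh2) went from 67.5 and 70.7 to 2.76 and 1.42 FPKM, Ncam1 from 61.9 and 62.2 to 3.85 and 3.17, and Chl1, a neural L1-family molecule, from 69.2 and 77.8 to 0.0274 and 0.00581. The 2 that rose, Thy1 (42.5 and 24.5 FPKM against 0.752 and 0.93) and Cdh11 (8.57 and 5.85 against 1.01 and 1.14), are also known from fibroblasts. Of 24 neural ion channels and transporters, 13 fell, 2 rose and 9 were not called, and 0 rose with the FPKM sum scaled or without the second hybrid library. Of 32 axon guidance members, 14 fell, 3 rose and 15 were not called, and under quantile normalization 6 rose. Sema6a fell from 35.8 and 37.8 to 0.576 and 0.498 FPKM, and the ephrin receptor Epha2, which pluripotent cells express, rose from 2.02 and 2.07 to 51.7 and 43.4.

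Neuronal genes did not move as a block. Of 36 members that encode neuronal cytoskeleton or synapse proteins, 20 fell, 4 rose and 12 were not called. Map2 (172.7 and 191.1 to 1.77 and 1.75 FPKM) and the calcium sensor Ncald (76.9 and 78.8 to 0.187 and 0.109) were among those that fell. The 4 that rose were cytoskeletal. Stmn2, a microtubule regulator known from axons, had 168.1 and 128.6 FPKM in hybrid cells and 0.493 and 0.531 in NSCs. Nefl, the light neurofilament, had 19.6 and 14 against 0.428 and 0.232 FPKM, and Tubb3, the neuron-type tubulin, 30.5 and 20.9 against 3.67 and 2.75. Ina, at 7.54 and 3.66 against 1.5 and 1.54 FPKM, was the fourth, a call lost with the FPKM sum scaled and without the first hybrid library or either NSC library. In EPSCs their means were 151.5 FPKM for Stmn2, 20.4 for Nefl, 37.4 for Tubb3 and 9.45 for Ina, each above its mean in NSCs.

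On the oligodendrocyte list, 6 of 16 members fell, 1 rose and 9 were not called, and with the FPKM sum scaled 10 fell. Bcas1 fell from 75.9 and 77.5 to 0.832 and 0.559 FPKM and Lhfpl3 from 30.4 and 32.4 to 0 in both hybrid libraries. The gene that rose was Bmp4, a signalling ligand, from 0.0195 and 0.0388 to 44.8 and 34.9 FPKM.

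HOX genes mark position along the body axis. Among 39 HOX genes in the table, 11 reached the level for the comparison. Of these 4 fell, 1 rose and 6 were not called, and with the FPKM sum scaled 7 fell. The 4 that fell belong to the HoxA cluster. Hoxa5 had 17.2 and 18.5 FPKM in NSCs and 0.199 and 0.0788 in hybrid cells, Hoxa3 12.1 and 14 against 0.0889 and 0.0751, and Hoxa4 and Hoxa7 fell alike. All 28 genes of the HoxB, HoxC and HoxD clusters were listed at 0 in both NSC libraries. In hybrid cells 23 of the 28 were above 0 in both libraries, and 24 had a mean below 1 FPKM, with Hoxb9 (3.7 and 4.54 FPKM) and Hoxc6 (2.95 and 2.44 FPKM) the highest. In EPSCs 21 of the 28 were above 0 in both libraries. Feeder fibroblasts were in the hybrid and EPSC cultures, and their part in these HOX values was not tested.

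**Figure D3:**
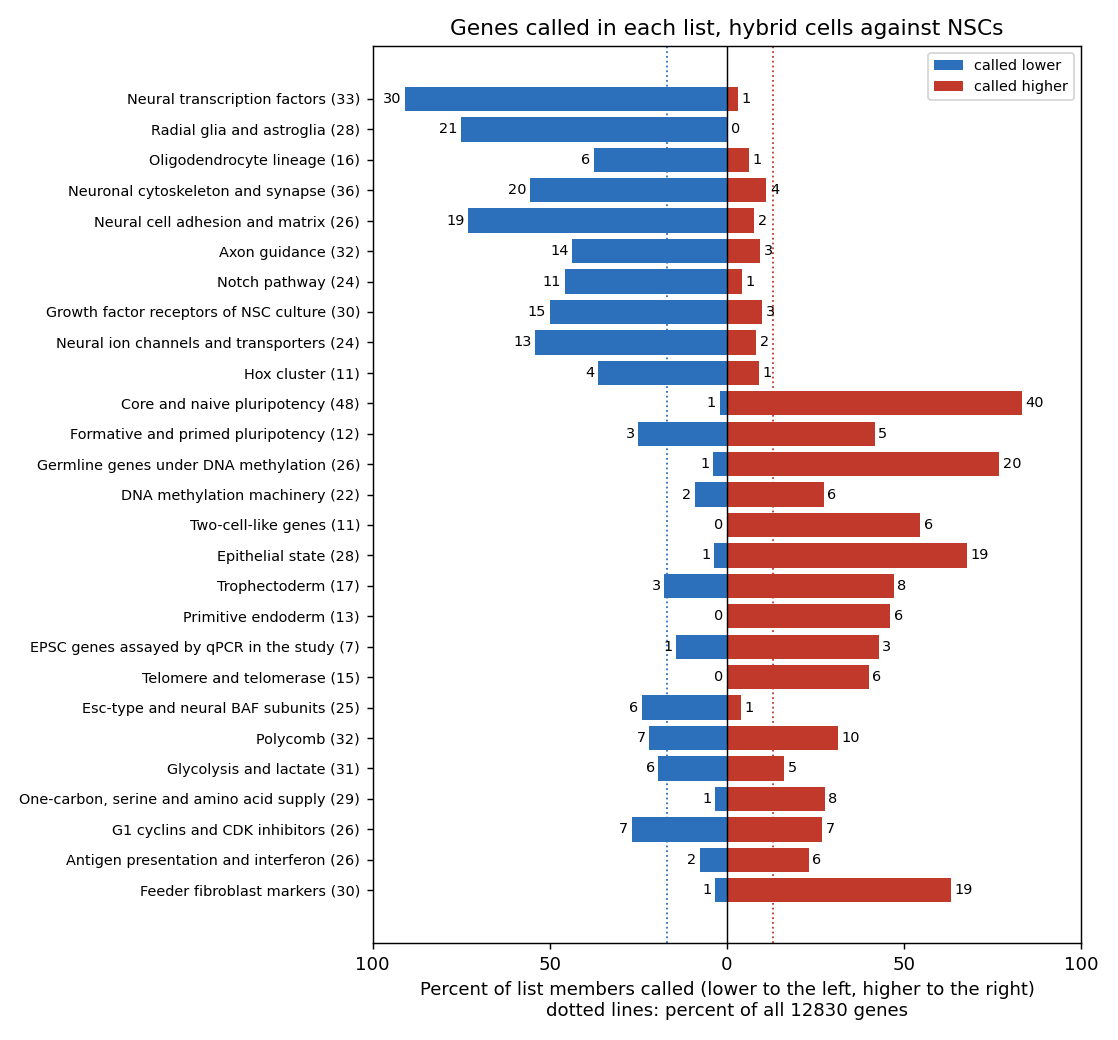
Bars give the percent of each list's members called lower (blue, to the left) and higher (red, to the right) in hybrid cells, with the counts at the bar ends, list sizes in parentheses and the percent of all 12830 genes as dotted lines. Neural transcription factors reach 30 of 33 lower, and core pluripotency genes 40 of 48 higher.

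The core and naive pluripotency genes rose. All 48 genes of the list reached the level for the comparison, 40 rose, 1 fell and 7 were not called, with a median log2 difference of 5.68. Of the 40, 35 had an NSC mean below 1 FPKM. Dppa5a, an RNA-binding protein of pluripotent cells, had 2955 and 2830 FPKM in hybrid cells and was listed at 0 in both NSC libraries. Nanog had 315 and 326.7 FPKM in hybrid cells and 0.296 and 0.155 in NSCs, a log2 difference of 8.04 ± 0.07 (SE; limma, adjusted p = 4.008e-10). Zfp42 (REX1), a marker of the naive state, had 228 and 201.5 FPKM and was listed at 0 in NSCs. Tdh, the threonine dehydrogenase on which mouse pluripotent cells depend, had 466.5 and 414.5 FPKM, and the NODAL coreceptor Tdgf1 337.1 and 264.5, both against 0 in NSCs. Esrrb, an orphan nuclear receptor, rose from 0.254 and 0.364 to 212.6 and 190.9 FPKM.

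Members that NSCs already expressed rose by less or were not called. Klf4 rose from 1.8 and 2.41 to 76.3 and 99.7 FPKM, and Mybl2, a cell cycle transcription factor, from 11.8 and 12.5 to 219.7 and 204.3. The LIF pathway genes Stat3 (44.2 and 39.7 FPKM in hybrid cells, 73.6 and 75.7 in NSCs), Lifr (8.27 and 7.4 against 11.5 and 12.7) and Il6st (23.1 and 19.7 against 27.5 and 27.6) were not called. Myc was the member that fell, from 34.5 and 38.2 to 12.5 and 8.63 FPKM, and without the second hybrid library its ratio missed the threshold. Mycn rose from 1.18 and 1.11 to 44.6 and 27.8. The 2 hybrid libraries were apart by more than the NSC libraries in some members, as for Lin28a, an RNA-binding protein that blocks let-7, at 141.8 and 71.8 FPKM against 0.0107 and 0.0317.

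Genes that mark later, formative or primed pluripotency were mixed, with 5 of 12 members higher, 3 lower and 4 not called. Without the first hybrid library 3 in place of 5 were higher. Dnmt3b rose from 1.36 and 1.11 to 90 and 70.8 FPKM. Pou3f1 (OCT6) and Sall2, both of which NSCs also express, fell, Sall2 from 64.5 and 66.1 to 0.808 and 0.75 FPKM, and Otx2 was not called at 3.94 and 3.04 FPKM in hybrid cells against 2.46 and 3.07 in NSCs.

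Extraembryonic and EPSC genes were of interest because EPSCs are described as able to form extraembryonic cells. Of 17 trophectoderm members, 8 rose, 3 fell and 6 were not called. In 9 of the 17 the NSC mean was below 0.1 FPKM, so these could not be called lower. The FPKM summed over the list was between 263.7 and 302.1 in hybrid cells and between 245.8 and 255.9 in NSCs. The 3 that fell were Itga7 (mean 35.75 FPKM in NSCs, 1.205 in hybrid cells), Peg10 (47.62 and 10.24) and Fgfr2 (5.613 and 1.582). Tfap2c, a factor of trophoblast and germ cells, was listed at 0 in both NSC libraries and had 32 and 35.8 FPKM in hybrid cells, and Tead4, which acts at the start of trophectoderm, rose from 0.0609 and 0.0505 to 9.52 and 7.95. Gata3, at 0.869 and 1.33 FPKM in hybrid cells, was not called. Of 13 primitive endoderm members, 6 rose, 0 fell and 7 were not called. Fibronectin (Fn1) rose from 25.9 and 23.9 to 170.6 and 163.6 FPKM, while Sox7 had 1.25 and 0.86 FPKM in hybrid cells and was not called. Sparc, Serpinh1 and Lamc1 of this list were not called either. Feeders were in the hybrid culture, and their part in the Fn1 values was not tested. The list of 7 genes which the study assayed by qPCR as EPSC genes held 3 that rose, 1 that fell and 3 not called. Bgn (131.1 and 98.5 against 0.032 and 0 FPKM), Postn (41.1 and 31.1 against 0 and 0.0237) and Esrp1 (10.5 and 6.81 against 0 in both) rose, and Tnc fell from 260.6 and 268 to 75.2 and 55. Bgn and Postn are also fibroblast matrix genes.

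Fibroblast markers moved with the hybrid group. Of 30 members on a list of feeder fibroblast markers, 19 rose, 1 fell and 10 were not called. Summed over the 32 genes of the list in the table, FPKM was between 594.5 and 788 in hybrid cells, between 141.4 and 147 in NSCs and between 311.4 and 351.7 in EPSCs, and 5 of the 32 were listed at 0 in both NSC libraries. Col1a1 had 61 and 46.2 FPKM in hybrid cells, 0.226 and 0.192 in NSCs and a mean of 14.7 in EPSCs, and Lum 18.4 and 16.7, 0 and 0, and 4.53. In 29 of the 32 genes both hybrid libraries were above both EPSC libraries. The share of all members with this order was not counted, so this count has no background. Bgn and Postn are themselves on this list, and the part of feeder RNA in their values was not tested. Of 16 microglia and blood markers, only Cd68 reached the level for the comparison (14 and 13.5 FPKM in hybrid cells), and the other 15 were at or below 0.477 FPKM in both hybrid libraries.

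Hybrid cells carried the genes of an epithelium. Of 28 members on an epithelial list, 19 rose, 1 fell and 8 were not called, with a median log2 difference of 3.02. In 22 of the 28 the NSC mean was below 0.1 FPKM, so that these entered through their hybrid level alone and could not be called lower. E-cadherin (Cdh1) had 88.5 and 101.7 FPKM in hybrid cells and was listed at 0 in both NSC libraries, opposite to Cdh2. Epcam had 55.3 and 59.9 FPKM against 0.0564 and 0. Esrp1, a splicing regulator of epithelia, and the claudins Cldn4, Cldn6 and Cldn7 were listed at 0 in NSCs, Cldn4 with 20.4 and 25.6 FPKM in hybrid cells. The member that fell was Tjp1, a tight junction scaffold which is not confined to epithelia, from 64.7 and 64.6 to 15.3 and 14.9 FPKM. In EPSCs the mean was 140.3 FPKM for Cdh1, 156.7 for Epcam and 101.4 for Cldn4.

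Germline genes whose promoters DNA methylation silences in somatic cells rose for the most part. Of 26 members, 20 rose, 1 fell and 5 were not called, with a median log2 difference of 3.30, and the FPKM summed over the list was between 21.2 and 21.6 in NSCs and between 1535 and 1615 in hybrid cells. In 22 of the 26 the NSC mean was below 0.1 FPKM, so that these entered through their hybrid level alone and could not be called lower. The list held 36 genes, and those low in both cell types were left out, which raises the share and the median. Rhox5, an X-linked homeobox gene, went from 1.57 and 0.708 to 952.2 and 952.7 FPKM (log2 difference 8.83 ± 0.17). Tex19.1, which holds retrotransposons down in germ cells and placenta, was listed at 0 in NSCs and had 269.8 and 278.6 FPKM in hybrid cells. Dazl, an RNA-binding protein of germ cells, had 22 and 35.8 FPKM against 0.0387 and 0. Stra8, which retinoic acid induces at the start of meiosis, was at 8.66 FPKM in one hybrid library and 36.7 in the other, and listed at 0 in both NSC libraries. The gene that fell (2 fell without the first hybrid library or with the FPKM sum scaled) was Zcwpw1, a histone reader of meiosis, from 13.5 and 13.9 to 3.2 and 4.36 FPKM. EPSC means were lower than both hybrid values in Rhox5 (387.8 FPKM), Tex19.1 (127.8 FPKM) and Dazl (9.49 FPKM), but not in Ddx4 (10.5 FPKM in EPSCs, 6.03 and 5.48 in hybrid cells).

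Upstream sequences of some genes of the germline list are shown because their promoters are where methylation acts. Sequences are from RefSeq on GRCm38, from 250 bases before to 50 after the annotated start, written 5′ to 3′ along the gene, and 10211 members had one. The letters CACGTG are an E-box that reads the same on both strands and is known as a site of MYC-type and MGA factors with MAX. They were in the promoters of 40.9% of the 22 germline members with a sequence, against 10.4% of members. Over all 27025 RefSeq promoters, a set larger than the genes listed with FPKM, it was 7.24%. Of promoters of genes called higher 12.6% held it, and 7.88% of those called lower. Ddx4 (chr13:112652261-112652560, minus strand) and Mael (chr1:166238695-166238994, minus strand), which work in the piRNA pathway, hold it 1 time each. Fkbp6 (chr5:135349995-135350294, minus strand) and Hormad1 (chr3:95559427-95559726, plus strand), which act in meiosis, hold it 2 times each. Capitals mark CACGTG.
Ddx4: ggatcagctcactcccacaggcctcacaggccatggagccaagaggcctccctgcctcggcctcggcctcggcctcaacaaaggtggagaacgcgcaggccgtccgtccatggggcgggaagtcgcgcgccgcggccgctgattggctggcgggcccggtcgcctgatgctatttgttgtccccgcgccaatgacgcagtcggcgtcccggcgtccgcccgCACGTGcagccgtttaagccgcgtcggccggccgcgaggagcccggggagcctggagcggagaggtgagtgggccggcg
Fkbp6: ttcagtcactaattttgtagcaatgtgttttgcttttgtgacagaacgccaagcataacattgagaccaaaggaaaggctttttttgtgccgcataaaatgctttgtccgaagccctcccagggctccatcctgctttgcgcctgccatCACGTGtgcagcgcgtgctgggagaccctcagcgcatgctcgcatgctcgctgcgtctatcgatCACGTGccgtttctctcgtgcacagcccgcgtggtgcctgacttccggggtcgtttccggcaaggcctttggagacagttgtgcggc
Hormad1: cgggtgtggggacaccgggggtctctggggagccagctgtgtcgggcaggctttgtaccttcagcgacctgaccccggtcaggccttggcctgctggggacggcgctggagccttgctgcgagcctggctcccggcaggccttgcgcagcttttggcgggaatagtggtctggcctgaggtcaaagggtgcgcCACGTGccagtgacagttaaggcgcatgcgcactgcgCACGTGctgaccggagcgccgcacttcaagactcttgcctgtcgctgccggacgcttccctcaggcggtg
Mael: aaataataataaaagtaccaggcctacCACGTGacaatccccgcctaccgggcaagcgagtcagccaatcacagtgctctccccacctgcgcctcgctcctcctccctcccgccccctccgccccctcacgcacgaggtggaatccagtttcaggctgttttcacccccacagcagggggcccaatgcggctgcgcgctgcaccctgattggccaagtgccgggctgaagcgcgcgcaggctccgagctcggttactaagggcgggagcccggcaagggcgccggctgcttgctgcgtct

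In these 4 genes the NSC libraries were at or near 0. Fkbp6 had 40.3 and 43.8 FPKM in hybrid cells and was listed at 0 in NSCs. Mael had 6.73 and 11.7, Hormad1 8.58 and 9.03, both against 0 in NSCs, and Ddx4 6.03 and 5.48 against 0.0681 and 0.108. A match to 6 letters is a description of the window and not a shown binding site.

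CpG content differed between the called sets. The ratio of observed to expected CpG had a median of 0.659 in promoters of genes called higher and 0.742 for genes called lower. It was 0.792 for genes not called, 0.771 over all members and 0.389 over all 27025 RefSeq promoters. Among the genes called higher whose NSC mean was below 0.1 FPKM the median was 0.405. The germline list, at 0.692, stood above these but below all members, while the radial glia list, at 0.403, was like those genes low in NSCs. TATAAA on either strand was in 10.8% of promoters of genes called higher, 6.67% of those called lower and 6.79% of members. Over all RefSeq promoters it was in 14.2%. The octamer ATGCAAAT, which POU factors bind, also on either strand, was in 2.3%, 1.8%, 1.44% and 1.75% of these sets in turn. Fabp7 (chr10:57784673-57784972, plus strand), the gene of the largest fall, and Zfp42 (chr8:43306960-43307259, minus strand), which was at 0 in NSCs, are shown as examples with few CpGs, 6 and 11, against 38 in the Ddx4 window above. Capitals mark CpG.
Fabp7: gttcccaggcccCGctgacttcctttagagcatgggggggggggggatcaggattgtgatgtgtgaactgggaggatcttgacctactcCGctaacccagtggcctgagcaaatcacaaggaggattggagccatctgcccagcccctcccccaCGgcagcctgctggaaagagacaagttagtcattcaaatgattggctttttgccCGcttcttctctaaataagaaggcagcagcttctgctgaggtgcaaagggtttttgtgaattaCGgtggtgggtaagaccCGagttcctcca
Zfp42: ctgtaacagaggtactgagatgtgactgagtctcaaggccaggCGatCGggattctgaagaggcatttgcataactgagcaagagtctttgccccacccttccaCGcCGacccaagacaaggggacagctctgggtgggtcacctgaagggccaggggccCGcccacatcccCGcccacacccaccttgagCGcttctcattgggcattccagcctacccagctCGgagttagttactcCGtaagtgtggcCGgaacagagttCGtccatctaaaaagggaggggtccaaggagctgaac

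The writers and erasers of DNA methylation moved in both directions, with 6 of 22 members higher, 2 lower and 14 not called, and with the FPKM sum scaled 6 lower. The cofactor Dnmt3l was listed at 0 in NSCs and was at 69.9 FPKM in one hybrid library and 16.8 in the other, both far above NSCs but well apart. Tet1, a dioxygenase that oxidises methylcytosine, rose from 3.26 and 3.61 to 38 and 30.8 FPKM, whereas Tet3 fell from 17.7 and 19 to 0.893 and 0.844. Zfp57, which guards methylation at imprints, rose from 4.68 and 4.56 to 216.5 and 206.4. The maintenance enzyme Dnmt1 was not called at 86 and 91.9 FPKM in hybrid cells against 91.2 and 89.7 in NSCs.

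Genes of the transient 2-cell-like state of pluripotent cultures appeared at low level. Of 11 members, 6 rose, 0 fell and 5 were not called, and the sum over the list was between 0.0987 and 0.221 FPKM in NSCs and between 48.4 and 58.7 in hybrid cells. In 10 of the 11 the NSC mean was below 0.1 FPKM. These entered through their hybrid level alone and could not be called lower, so the 0 that fell was largely set by the rule. Zscan4c had 8.86 and 11.8 FPKM and Zscan4d 8.16 and 10.6, both listed at 0 in NSCs. Zscan4 genes are near-identical copies among which reads may be split, so their single values are uncertain. Of 15 telomere genes, 6 rose and 0 fell. Terf1, a telomere-binding protein, rose from 8.87 and 9.41 to 82.2 and 85.3 FPKM, whereas the telomerase subunit Tert, at 1.69 and 1.5 FPKM in hybrid cells, lay below the level for a call.

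**Figure D4:**
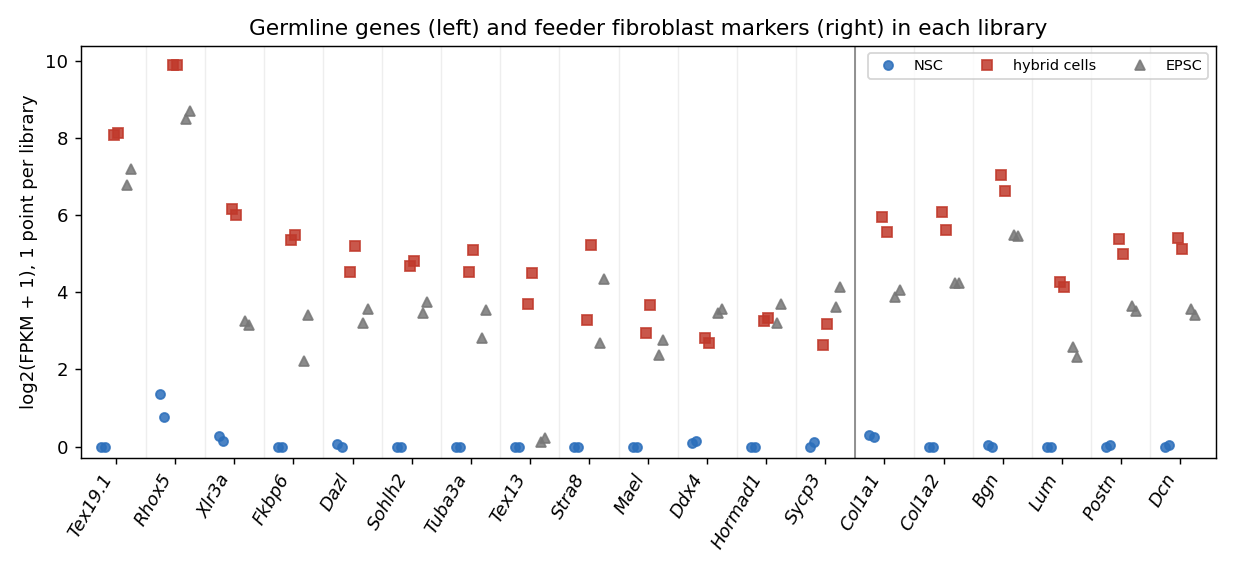
Log2(FPKM + 1) on the y axis for 13 germline genes (left) and 6 feeder fibroblast markers (right), 1 point per library of NSCs (circles), hybrid cells (squares) and EPSCs (triangles). NSC points lie at or near 0 except in Rhox5, and hybrid points of the fibroblast markers lie above those of EPSCs.

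Subunits of chromatin complexes moved in both directions. Of 25 BAF subunits, 6 fell, 1 rose and 18 were not called. The ATPase Smarca2 (BRM) fell from 22.3 and 21 to 2.56 and 2.3 FPKM, while its alternative Smarca4 (BRG1) was not called, at 56.3 and 56.1 against 66.6 and 69 FPKM. Smarcc2 (BAF170) fell from 52.1 and 51.4 to 4.16 and 4.69 FPKM, and its paralog Smarcc1 (BAF155) was at 86.2 and 67.5 against 52.9 and 56.2, not called. Smarcd3 and Dpf3 fell, and Smarcd2 rose from 8.09 and 8.2 to 27.9 and 35.9 FPKM, which was no longer called with the FPKM sum scaled.

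Of 32 Polycomb members, 10 rose, 7 fell and 15 were not called, and with the FPKM sum scaled 6 rose. Among the chromobox subunits of PRC1, Cbx7 rose from 2.17 and 2.5 to 36.1 and 37.6 FPKM, while Cbx8 fell from 11.6 and 10.1 to 1.41 and 2.04. Among the PCGF subunits, Bmi1 (PCGF4) fell from 39.1 and 42.3 to 4.33 and 6.2 FPKM, and Pcgf2 rose from 5.47 and 5.2 to 46.8 and 53.1 and Pcgf6 from 7.69 and 8.63 to 63.2 and 57.4. The PRC2 core genes Eed (19.6 and 19.5 to 152.2 and 117 FPKM) and Suz12 (32.7 and 38.6 to 117.3 and 123.2) rose, though the call of Suz12 was lost with the FPKM sum scaled and under quantile normalization, and the methyltransferase Ezh2 was not called at 69 and 79.5 FPKM against 57.8 and 63.1.

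Cell cycle genes of G1 were split evenly, with 7 of 26 members higher, 7 lower and 12 not called. With the FPKM sum scaled 2 were higher. The D-type cyclins parted. Ccnd1 fell from 398.6 and 412 to 58.7 and 42.8 FPKM and Ccnd2 from 152.4 and 164.6 to 8.52 and 5.33, while Ccnd3 rose from 37.3 and 39.7 to 153 and 184.8, a call lost with the FPKM sum scaled. Cyclin E1 (Ccne1) rose from 17.5 and 16.8 to 77.7 and 86.4 FPKM. The CDK inhibitors Cdkn2c (76.9 and 78.4 to 0.522 and 1.01 FPKM) and Cdkn1b (44.8 and 52.4 to 5.2 and 6.27) fell, as did Rb1, from 17.6 and 19.4 to 2.31 and 2.4.

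In glycolysis, 5 of 31 members rose, 6 fell and 20 were not called, and with the FPKM sum scaled 3 rose and 11 fell. Among them Aldoc, the brain aldolase, fell from 339.7 and 312.8 to 7.49 and 6.7 FPKM. The glucose transporter Slc2a3 rose from 16.3 and 15.9 to 240.7 and 268.2 and hexokinase 2 (Hk2) from 9.27 and 8.92 to 48 and 43.8. Gapdh, at 2245 and 1900 FPKM in hybrid cells and 1072 and 959.1 in NSCs, was not called. Of 29 genes of serine, one-carbon and amino acid supply, 8 rose, 1 fell and 20 were not called, and 4 rose with the FPKM sum scaled. Asns, asparagine synthetase, rose from 29.5 and 30.9 to 277.8 and 273.5 FPKM, and Gldc, the glycine decarboxylase, from 32.8 and 32.5 to 113.6 and 102.9, a call lost under both the scaled FPKM sum and quantile normalization. Mthfd2l fell from 7.47 and 8.55 to 0.816 and 0.689. Of 26 genes of antigen presentation and interferon response, 6 rose, 2 fell and 18 were not called (8 fell with the FPKM sum scaled and 4 without the first hybrid library), with the interferon-induced Bst2 at 35.9 and 36.4 FPKM in hybrid cells against 3.75 and 4.07 in NSCs.

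How far genes were turned off differed from gene to gene. Of the 2153 genes called lower, 1336 (62.1%) kept a hybrid mean of at least 1 FPKM, 623 (28.9%) lay between 0.1 and 1, and 194 (9.01%) were below 0.1, of which 26 were listed at 0 in both libraries. At the estimated depth of 24000000 and 22700000 fragments in the hybrid libraries, 3 fragments on a transcript of 2 kb are 0.0694 and 0.0734 FPKM, so that values below 0.1 are close to the limit which a count of 0 allows. The 26 included Mlc1, Slc6a11, Pou3f4, Lhfpl3, Omg and Ncam2. Creatine kinase B (Ckb) stayed highest among the genes that fell, from 4237 and 4022 to 326.1 and 470.3 FPKM.

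Of the 194 genes below 0.1 FPKM in hybrid cells, 174 were below 0.1 in EPSCs too and 0 reached 1. Of the 1336 that kept at least 1 FPKM, 1213 had an EPSC mean of at least 1 and 123 a mean below 1. The highest of these 123 was the cadherin Cdh4, at 4.01 and 3.66 FPKM in hybrid cells, 36.7 and 40.1 in NSCs and 0.806 and 0.6 in EPSCs. The ligand Wnt5a came next, with 3.3 and 2.45 FPKM against 0.933 and 0.861 in EPSCs. P2rx7, an ATP-gated channel, had 2.43 and 2.85 FPKM against 0.827 and 0.832, and Egfr and Ptn were also among the 123. These genes were chosen on their EPSC level, so their order against EPSCs is a description. Feeder fibroblast markers differed in the same direction, 29 of 32 being higher in both hybrid libraries than in both EPSC libraries. The share over all members was not counted for that order, and the part of feeders in these values was not tested.

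Genes called higher were sorted in the same way by their NSC level. Of the 1671 called higher, 470 (28.1%) had an NSC mean below 0.1 FPKM, 257 of them listed at 0 in both NSC libraries, 300 (18.0%) lay between 0.1 and 1, and 901 (53.9%) were at least 1. In EPSCs 1656 of the 1671 had a mean of at least 1 FPKM. Among the 15 that did not were Tex13 (12 and 21.7 FPKM in hybrid cells, 0 in both NSC libraries and a mean of 0.127 in EPSCs) and Xlr3c, Xlr4b and Xlr4c, X-linked genes of multicopy families whose reads may be split between copies. The call of Xlr4c was lost without the second hybrid library.

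**Figure D5:**
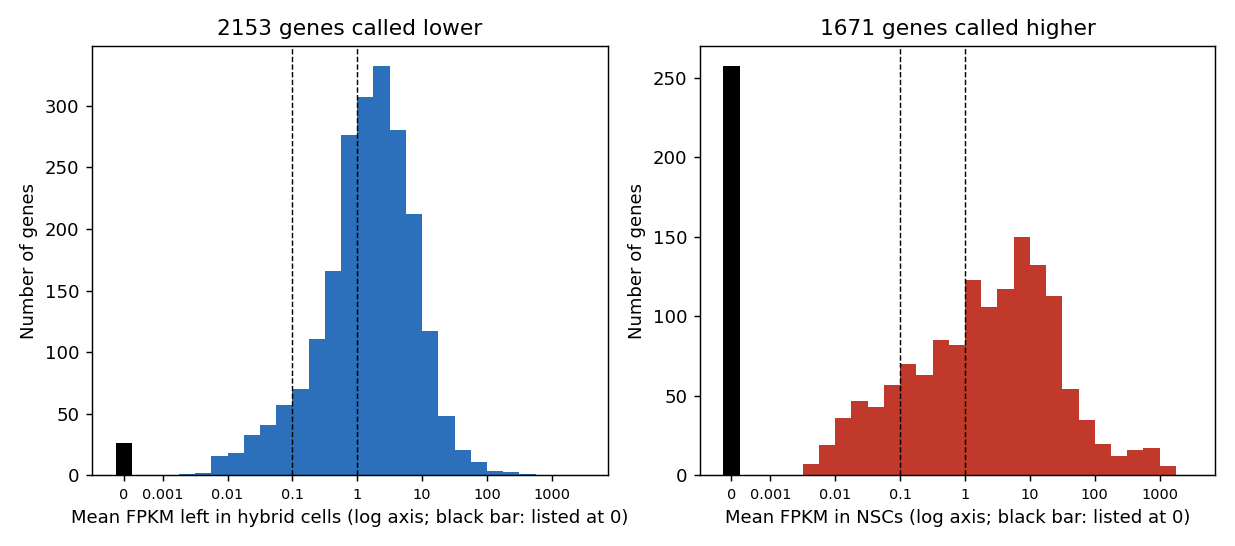
Histograms on a log axis of the hybrid mean FPKM of the 2153 genes called lower (left) and of the NSC mean FPKM of the 1671 genes called higher (right), with dashed lines at 0.1 and 1 and a black bar for genes listed at 0. The black bar holds 26 genes on the left and 257 on the right.

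Other large gains lay outside the lists. Rps4l, a ribosomal protein gene close in sequence to Rps4x, was listed at 0 in NSCs and had 641.8 and 686.8 FPKM in hybrid cells, where reads may be split between the copies. Fabp3, the heart-type fatty acid binding protein, had 371 and 522.5 FPKM against 0.709 and 0.325, the reverse of Fabp7. Hspb1, a small heat shock protein, had 425.8 and 402.6 against 0.496 and 0.652, and 2210409E12Rik 253.6 and 282.7 against 0. Of 292 lncRNA genes in the comparison, 69 rose and 41 fell. Platr14, a transcript named for its association with pluripotency, had 125.4 and 116.5 FPKM in hybrid cells against 0 and 0.103, and Lincenc1 54.3 and 43.2 against 0 and 0.011. Pantr1, which lies beside Pou3f3, went from 47.2 and 40.1 FPKM to 0 in both hybrid libraries.

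Shares varied from chromosome to chromosome. The share of members called lower was highest on chromosome 6, at 24.0% (147 of 612), and lowest on chromosome 16, at 11.1%, among the autosomes and X. With the 6 members on Y left aside, the share called higher was highest on X, at 18.6%, and lowest on chromosome 18, at 7.47%. The median log2 difference lay at 0.33 on chromosomes 4 and 11 and at -0.32 on chromosome 18. The copy number of each chromosome in this line was not measured here.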

How the data were processed

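RNA from hybrid cells, NSCs, EPSCs and ESCs was sequenced as paired-end, stranded poly-A libraries (TruSeq). The authors trimmed reads with skewer, aligned them to mm10 with STAR 2.7.9a and deposited 1 table of FPKM per gene and library made with Cuffnorm 2.2.1 of Cufflinks (tool versions from the submitters' processing notes). The gene annotation and the Cuffnorm library normalization are not given in the sources used here. The table lists 24354 gene symbols, of which 24234 were matched to RefSeq (GRCm38.p6) for coordinates and promoters, the first start site listed being used where a gene has several. The summed FPKM was 643268 and 634954 in the hybrid libraries and 415240 and 415412 in the NSC libraries, and the depth estimated from the steps of low values was 24000000 and 22700000 fragments, and 28600000 and 28800000, with an assumed mean fragment of 200 bases.

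FPKM are not counts, so log2(FPKM + 1) was fitted with limma 3.58.1 (trend) in R 4.3.3 over 4 groups and 8 libraries, for 13239 genes with a mean of at least 1 in any group, and p-values were adjusted by Benjamini-Hochberg over all of them. A call also needed a mean above 3 FPKM and a ratio of means above 3, after a rule of the study. On simulated data for this comparison (13239 genes, 200 changed) 95 of 100 genes changed by 1 log2 unit were recovered. For genes changed by 2 it was 99 of 100, with 11 false calls. A change of 1 log2 unit stays under the ratio of 3, so these figures describe limma alone and not the full rule. The changed genes were drawn only from those of higher mean level, so recovery near the FPKM limits was not measured. They were also far fewer than the 11202 members that limma passed in the data. Named genes were the 10 largest changes in each direction, up to 4 members of highest level and up to 3 against the majority in each of 29 lists, and a fixed set of 26 marker genes. Other genes in the text were chosen after their values were seen. The members and lists were chosen with earlier results of these data known. Alternatives covered scaling, pseudocount, filters, thresholds, samples fitted, a replicate block and leaving out each library. Some genes are not reported here.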

Additional observations from a re-analysis of the deposited data

How the results depend on the processing

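The count of genes called higher (1671) became 3024 with both thresholds at 2 and 882 at 5, and that of genes called lower (2153) became 3308 and 1216. When every library was scaled to the same FPKM sum, the median log2 difference of members moved from 0.03 to -0.55, 3633 genes were lower and 1351 higher, and 27.1% of calls were higher against 43.7% in the deposited scale. All 2153 genes called lower remained and 1147 of the 1671 called higher did. Ribosomal protein genes (87 members) held 25.8% and 26.1% of the sum in hybrid cells and 13.6% and 13.2% in NSCs, and the cause of the difference in sums was not tested. Quantile normalization gave 1775 higher and 1937 lower. With 0.3 FPKM in place of 0.1 as the limit, 365 of the genes called lower lay under it in hybrid cells. Leaving out 1 library gave 1652 to 1697 higher and 2146 to 2193 lower. Counts of higher or lower genes within the 29 lists and the imprinted genes moved by over 1.5 times in 17 cases with the FPKM sum scaled, 3 under quantile normalization, 14 with thresholds of 2 and 20 with thresholds of 5. They moved in 3 cases without the first hybrid library, 2 without the second and 2 without the second NSC library. With the replicate block the counts were 1671 and 2153. The correlation of deviations between equal replicate numbers was -0.017, so the numbers do not pair the libraries.

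Among the genes that the naming rule picked, directions turned only in genes not called, and other genes were not listed for this. With the FPKM sum scaled these were Apoe (-0.25), Etv5 (-0.32), Etv4 (-0.01), Lamc1 (-0.28), Smarcc1 (-0.14), Smarcb1 (-0.61), Aldoa (-0.0005), Psat1 (-0.08) and Sox2 (-0.14). Under quantile normalization they were Apoe (-0.49), Etv5 (-0.22), Smarcb1 (-0.30), Gapdh (-0.39), Pkm (-0.57), Eno1 (-0.61), Aldoa (-0.42), Psat1 (-0.05) and Sox2 (-0.05). Without the second hybrid library Spry4, Serpinh1, Csf1, Smarcb1 and Cdk4 turned, and over the 4 fits with 1 library left out they ranged from -0.56 to 0.21 for Spry4, -0.15 to 0.06 for Serpinh1, -0.72 to 0.21 for Csf1, -0.03 to 0.04 for Smarcb1 and -0.11 to 0.02 for Cdk4.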

Other observations

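Imprinted genes, which are expressed from 1 parental allele, were not a list of the report, although Peg10 stood on the trophectoderm list. Of 38 such genes picked by textbook knowledge after the values had been seen, 31 were in the comparison, 12 rose, 7 fell and 12 were not called by limma with the rule of level and ratio. With the FPKM sum scaled 11 rose and 11 fell. Several that rose were listed at 0 in both NSC libraries. Meg3, the maternally expressed noncoding RNA of the Dlk1 domain, had 30.1 and 23.7 FPKM in hybrid cells, and its neighbours Rian (21.6 and 13.8 FPKM) and Mirg (2.14 and 2.09 FPKM, not called) were at 0 in NSCs as well. The same held for Slc38a4, an amino acid transporter of placenta, at 46.7 and 61.8 FPKM, for Phlda2 at 27.2 and 32.8 and for Zdbf2 at 9.77 and 8.88. In EPSCs their means were 39 FPKM for Meg3, 38.3 for Rian, 74.5 for Slc38a4, 72.2 for Phlda2 and 12.2 for Zdbf2.

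Imprinted genes that NSCs express went in both directions. Snrpn, a splicing protein gene, rose from 15.7 and 15.8 to 79.1 and 59.4 FPKM, a call lost with the FPKM sum scaled, and H19 from 3.62 and 3.31 to 40.3 and 29.3, while Igf2r and Impact were not called. Nnat, a membrane protein of neural tissue, fell from 110.2 and 102.3 to 4.11 and 2.66 FPKM, Nap1l5 from 44.2 and 44.5 to 0.321 and 0.286, and Mest from 374.2 and 413.1 to 74.6 and 54.3. Peg10 had 13.4 and 7.05 FPKM in hybrid cells, below both NSC (44.6 and 50.6) and EPSC (61.5 and 45.8) libraries. Which parental genome gave these transcripts was not tested.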
